A study of Mus musculus with 15 samples.

Results

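The nuclear-encoded subunits of the mitochondrial respiratory chain were compared among hearts of 3 kinds of mice. Members were all genes whose annotated symbol begins with Nduf, Sdha, Sdhb, Sdhc, Sdhd, Uqcr, Cox4, Cox5, Cox6, Cox7, Cox8 or Atp5. Each gene was read from its probe set (the short DNA probes that report 1 transcript) of highest mean signal over the 15 arrays. The rule found 94 of the 18190 genes with a symbol of their own on the array, and 92 of them lay among the 13111 genes bright enough to test. Of the 92, 79 were subunits: 33 of complex I, 4 of complex II, 8 of complex III, 17 of complex IV and 17 of complex V. Another 12 were assembly factors with Ndufaf or Sdhaf names, and 1 (Cox7a2l) is a supercomplex factor. Ndufb4 (mean log2 signal 5.47) and Cox7b2 (5.17) fell below the limit of 5.74 and were not tested. A dim probe set does not show that the heart holds little RNA of its gene. A further 10 probe sets carry several symbols including one of the rule, and were left unnamed.

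The respiratory chain sits in the inner mitochondrial membrane. Complexes I and II pass electrons from NADH and succinate to coenzyme Q, complex III passes them to cytochrome c, and complex IV passes them to oxygen. Complexes I, III and IV pump protons as they do so, and complex V, the ATP synthase, uses the proton gradient to make ATP. Heart muscle is packed with mitochondria and draws nearly all its ATP from this chain. The catalytic core of most complexes includes subunits encoded in mitochondrial DNA, and complex II is encoded wholly in the nucleus.

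The mice were male, untreated apart from a radiotelemetry transmitter placed in the abdomen at 7 weeks of age, and 9 to 10 weeks old at collection. C3H denotes the inbred strain C3H/HeJ, C57Bl/6 the inbred strain C57BL/6J, and B6C3F1 their first-generation cross, B6C3F1/J. Each had 5 arrays, each labelled as a separate mouse, made from 50 ng of RNA of the heart apex (10 to 18 mg of tissue) by a 2-cycle labelling. The apex was taken whole, so the values mix all its cell types, and fewer cells of a type cannot be told apart from less RNA per cell. All 8 cardiomyocyte markers were above the limit in each strain, and all 4 skeletal muscle markers were below it. The numbering of the mice follows strain without a break, and handling order and strain cannot be told apart. Values below are log2(signal + 16), a level of 1 probe set, and a difference of strain means is given as a log2 difference.

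Promoters of members are shown first because the genes share known regulators. Nuclear respiratory factor 1, the ETS-family factor GABP, the oestrogen-related receptors and YY1 are each known to act on respiratory chain genes. RefSeq promoter windows (build GRCm38.p6) were found for 78 of the 94 members, as 83 windows, and the 250 bases before the annotated start were searched on both strands. The NRF1-type string (GCGCA, then any base, then GCGC) lay in 15.7% of the members' windows and in 3.74% of all 32851 windows of that length. The shares were 19.3% and 6.91% for the ETS-type string CCGGAAG, 6.02% and 4.08% for the receptor string AAGGTCA, and 1.2% and 1.56% for the YY1-type string AAGATGGC. These 4 were kept from 7 strings tried, on windows with and without the 50 bases after the start, with their shares in view. With those 50 bases the YY1-type string lay in 12% of the members' windows and 2.75% of all, so its order reversed with the window. The longer windows gave 24.1% and 4.6% for NRF1, 26.5% and 8.86% for ETS, and 9.64% and 4.72% for the receptor string. The 3 strings not kept gave, on the shorter windows, 4.82% and 0.782% (a narrower NRF1 form), 1.2% and 0.387% (the longer receptor form TCAAGGTCA), and 1.2% and 0.301% (a longer YY1 form). On the longer windows they gave 7.23% and 0.971%, 2.41% and 0.423%, and 6.02% and 0.852%. For complexes I, III, IV and V, the sequence given is that of the subunit that followed its own complex most closely over the arrays among those whose window holds one of the 4 strings. The string or its reverse complement is in capitals, and each sequence runs 5' to 3' on the gene's strand. These genes were chosen after their values were seen. A match describes letters in a window and does not show that a factor binds there. In these windows Atp5j holds both a YY1-type and an ETS-type match, Uqcr11 and Cox6b1 an ETS-type match, and Ndufa8 an NRF1-type match.
Ndufa8, chr2:36049339-36049588, minus strand: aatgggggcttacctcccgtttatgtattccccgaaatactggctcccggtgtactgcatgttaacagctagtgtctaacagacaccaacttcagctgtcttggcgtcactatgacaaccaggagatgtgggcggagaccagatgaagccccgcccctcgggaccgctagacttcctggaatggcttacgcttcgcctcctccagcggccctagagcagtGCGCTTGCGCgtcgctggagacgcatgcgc
Uqcr11, chr10:80406822-80407071, minus strand: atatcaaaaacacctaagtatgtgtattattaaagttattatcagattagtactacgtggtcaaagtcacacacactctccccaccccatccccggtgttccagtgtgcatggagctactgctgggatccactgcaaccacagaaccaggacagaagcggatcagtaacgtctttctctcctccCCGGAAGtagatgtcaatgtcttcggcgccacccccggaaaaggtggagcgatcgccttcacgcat
Cox6b1, chr7:30626115-30626364, minus strand: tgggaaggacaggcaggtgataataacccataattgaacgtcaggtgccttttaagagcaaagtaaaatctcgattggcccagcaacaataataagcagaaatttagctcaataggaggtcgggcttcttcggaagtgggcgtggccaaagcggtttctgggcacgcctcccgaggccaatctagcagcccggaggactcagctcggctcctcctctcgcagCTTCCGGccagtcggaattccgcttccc
Atp5j, chr16:84834977-84835226, minus strand: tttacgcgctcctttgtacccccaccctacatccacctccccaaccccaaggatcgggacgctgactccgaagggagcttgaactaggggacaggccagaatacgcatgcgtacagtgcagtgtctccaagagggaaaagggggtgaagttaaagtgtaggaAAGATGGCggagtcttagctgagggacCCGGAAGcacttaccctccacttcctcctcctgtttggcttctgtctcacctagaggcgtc

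The first comparison asked how the inbred strains differ in these genes. Between C3H and C57Bl/6, 9 of the 92 members passed at an adjusted p under 0.05 (9.78%), against 15.7% of all tested genes. The 9 split into 3 higher in C3H (7.25% of all tested genes were) and 6 lower (8.4% of all were). The median difference of the members was -0.07, beside -0.02 over all tested genes, and 73 of the 92 differences were smaller than 0.25 in size. The arrays of the strains did not overlap for 7 members, and for 11.2% of all tested genes. Among the 7 were Ndufc2 (-0.29, adjusted p 0.0591) and Atp5a1 (-0.25, adjusted p 0.0912), which did not pass limma's test and are named after their values were seen. Complex medians were -0.02 (I), -0.16 (II), -0.03 (III), -0.12 (IV) and -0.09 (V), and differences ran from -0.84 to 0.27 in complex I, -0.19 to 0.01 in complex II and -0.35 to 0.52 in complex V. The split of higher against lower calls depended on scaling: with each array centred on its own median, which moved the median of all genes to 0.08, 5 members were higher and 3 lower. It depended on single arrays too, with 6 higher and 6 lower without C3H replicate 1, and 5 higher and 6 lower without C57Bl/6 replicate 2. Array weights gave 6 and 6, and the poly-A labelling controls as a covariate 3 and 3. Over all tested genes 1893, 2276, 2129, 2290 and 1533 passed under these settings in that order, against 2052 in the main fit. Under quantile normalization 13 of the 92 members passed, 5 higher and 8 lower, and 2143 of 13117 tested genes. The gap between members and all genes thus depended on scaling as well. Between these strains the summed endothelial markers were 12.51 to 13.29 in C3H and 13.08 to 13.49 in C57Bl/6, with 2 of 6 markers lower in C3H. The summed cardiomyocyte markers were 18.46 to 18.82 and 18.62 to 19.02, with 0 of 8 passing limma's test. Of the other marker lists, 3 of 7 fibroblast markers were higher in C3H, 1 of 5 leucocyte markers was higher and 1 lower, the 1 tested red cell marker was lower, and 0 of 3 smooth muscle markers passed. The part of cell makeup in the differences was not tested.

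**Figure D1:**
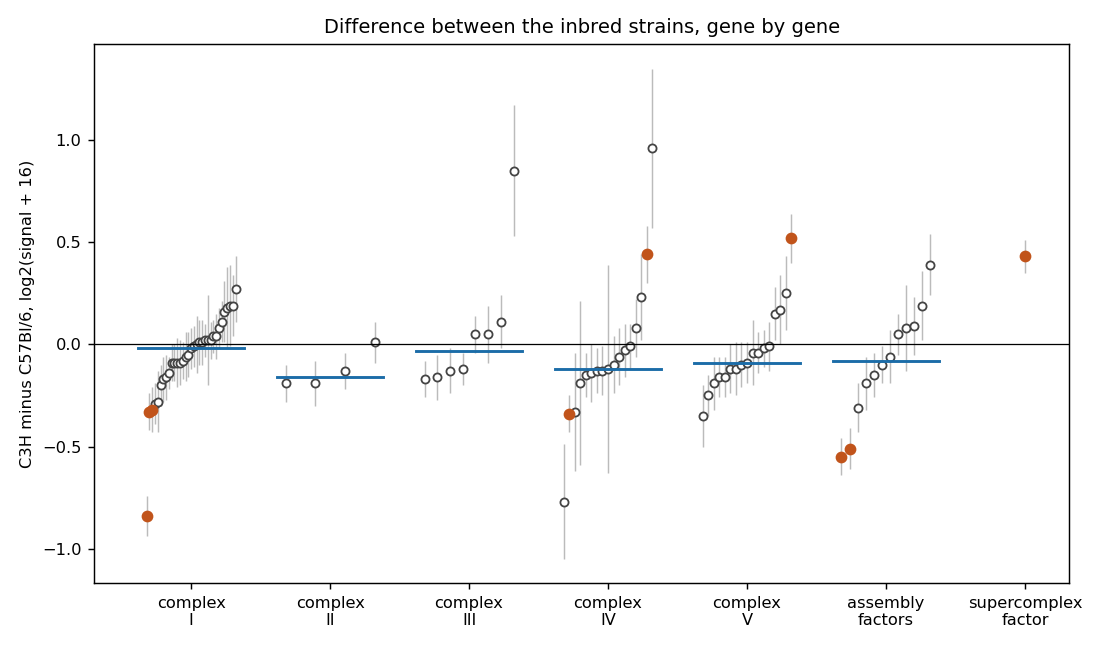
The difference between C3H and C57Bl/6 (log2 scale, vertical axis) is plotted for each tested member by complex, with its standard error as a grey bar, filled points for members that passed and a blue line for the median of the group. Most points lie near 0, and the 9 that passed lie in complexes I, IV and V, among the assembly factors and at Cox7a2l.

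Complex I held the largest of the members' passing differences. Ndufa12, an accessory subunit near the junction of the arm that takes up electrons, measured 15.25, 15.57, 15.15, 15.32 and 15.19 on the C57Bl/6 arrays. On the C3H arrays it measured 14.32, 14.41, 14.60, 14.51 and 14.45, and on the B6C3F1 arrays 15.03, 15.37, 15.33, 15.19 and 15.04. All 5 C3H arrays lay below all others, and those of B6C3F1 overlapped C57Bl/6. Ndufa12 was 1.79-fold lower in C3H than in C57Bl/6 (log2 difference -0.84, SE 0.10, adjusted p 2.19e-06) and 1.67-fold higher in B6C3F1 than in C3H (0.74, SE 0.10, adjusted p 5.39e-05). Both calls held under all 28 alternatives that could be fitted. Other probe sets of Ndufa12 disagreed. One gave 14.43 in C3H and 15.09 in C57Bl/6 (-0.67, adjusted p 5.33e-05 over probe sets, limma), and another gave 14.38 and 14.35. The chosen set has the ending _x_at, which marks probes able to match other transcripts. The B6C3F1 mean lay 0.32 above the midparent, the average of both parental means, and did not pass there (adjusted p 0.0981).

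Ndufs4, an accessory subunit whose loss causes a Leigh-like disease in mice and people, measured 14.18, 14.21, 14.17, 14.02 and 14.20 in C57Bl/6. It measured 13.79, 13.81, 13.78, 13.67 and 14.07 in C3H, where replicate 5 stood within the range of C57Bl/6. It was lower in C3H by limma (log2 difference -0.33, SE 0.09, adjusted p 0.0131). The call was lost with each array centred on its median (adjusted p 0.179) and with the poly-A labelling controls as a covariate (adjusted p 0.0974). Those controls measured 9.05 to 10.52 on the C3H arrays and 7.84 to 9.20 on the C57Bl/6 arrays. The other probe sets of Ndufs4 gave differences of 0.03, 0.18 and -0.49, and none passed. Ndufs5, an accessory subunit of the membrane arm, measured 12.49, 12.62, 12.71, 12.44 and 12.91 in C57Bl/6 and 12.36, 12.24, 12.47, 12.24 and 12.25 in C3H. Its difference of -0.32 (SE 0.11) barely passed (adjusted p 0.0477) and held in 14 of 29 alternatives. Leaving out C3H replicate 1, 2, 4 or 5, C57Bl/6 replicate 2, 3 or 5, or B6C3F1 replicate 1 or 4 ended it (adjusted p over all alternatives 0.00966 to 0.358). By module, 2 of 9 tested subunits of the electron-input module and 1 of 8 of the proximal membrane module passed between the inbred strains. In the Q module 0 of 5 passed, and in the distal membrane module 0 of 10. The share over all tested genes was 15.7%, and counts this small do not set the modules apart.

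Assembly factors build complexes without staying in them. Ndufaf1, which helps assemble the membrane arm of complex I, measured 12.22, 12.20, 12.34, 12.14 and 12.26 in C57Bl/6. In C3H it measured 11.89, 11.62, 11.68, 11.54 and 11.69, and in B6C3F1 11.91, 11.98, 11.84, 11.98 and 12.24. The inbred strains did not overlap. Ndufaf1 was lower in C3H than in C57Bl/6 (log2 difference -0.55, SE 0.09, adjusted p 0.000179), and higher in B6C3F1 than in C3H (0.31, SE 0.09, adjusted p 0.045). Ndufaf6, another complex I assembly factor, measured 10.84, 11.12, 11.05, 10.65 and 11.10 in C57Bl/6, 10.42, 10.45, 10.38, 10.41 and 10.58 in C3H, and 10.66, 10.85, 10.70, 10.85 and 10.83 in B6C3F1. All C3H arrays were the lowest. It was lower in C3H than in C57Bl/6 (-0.51, SE 0.10, adjusted p 0.00101) and higher in B6C3F1 than in C3H (0.33, SE 0.10, adjusted p 0.0497). Both calls between the inbred strains held in all 29 alternatives. The calls between B6C3F1 and C3H held in 11 of 29 (Ndufaf1) and 9 of 29 (Ndufaf6), and leaving out any of 12 arrays ended each. Ndufaf1 kept its call without B6C3F1 replicate 3, C3H replicate 1 or C57Bl/6 replicate 2 (adjusted p over all alternatives 0.0204 to 0.328). Ndufaf6 kept its call without C3H replicate 5 or C57Bl/6 replicate 2 or 4 (adjusted p over all alternatives 0.0304 to 0.323). The other 10 assembly factors did not pass, and their differences ran from -0.31 (Ndufaf5) to 0.39 (Sdhaf1).

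Complex II held the member that stood apart in the cross. Sdhc, a membrane anchor of succinate dehydrogenase, measured 14.34, 13.88, 14.12, 14.24 and 13.97 in C57Bl/6 and 14.22, 14.18, 13.99, 14.07 and 14.17 in C3H. In B6C3F1 it measured 13.54, 13.40, 13.71, 13.71 and 13.87, so that every B6C3F1 array lay below every parental array. Sdhc was lower in B6C3F1 than in C57Bl/6 (log2 difference -0.46, SE 0.10, adjusted p 0.0106), than in C3H (-0.48, SE 0.10, adjusted p 0.0055) and than the midparent (-0.47, SE 0.09, adjusted p 0.00953). These 3 contrasts share the B6C3F1 arrays. The first held in all 29 alternatives, the second was lost with the poly-A covariate (adjusted p 0.0549), and the third was lost without B6C3F1 replicate 2 (adjusted p 0.0512). Over all alternatives the adjusted p ran from 0.00149 to 0.0549 in the second and from 0.00278 to 0.0512 in the third. Its other probe set gave means of 11.19 in B6C3F1, 11.52 in C3H and 11.69 in C57Bl/6, and passed in none of these contrasts. Sdha, Sdhb and Sdhd, the flavoprotein, the iron-sulphur subunit and the other anchor, did not pass between the inbred strains on their chosen probe sets (-0.19, -0.19 and -0.13). Another probe set of Sdha did pass, with 14.64 in C3H and 15.10 in C57Bl/6 (-0.46, adjusted p 0.00261 over probe sets, limma).

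None of the 8 complex III members passed in any contrast. Uqcr10, a small subunit singled out after its values were seen, had the widest differences there, 0.90 between B6C3F1 and C57Bl/6 (SE 0.32, adjusted p 0.119) and 0.85 between C3H and C57Bl/6 (SE 0.32, adjusted p 0.0824 by limma). It measured 11.62, 12.92, 11.62, 11.72 and 12.15 in C57Bl/6, 11.79, 12.89, 13.18, 13.38 and 13.06 in C3H, and 13.07, 13.51, 12.97, 13.32 and 11.69 in B6C3F1. Its values thus fell low on 4 C57Bl/6 arrays, on C3H replicate 1 and on B6C3F1 replicate 5, the same arrays on which Cox8b was low.

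In complex IV, Ndufa4 and Cox6a1 passed between the inbred strains. Ndufa4, first assigned to complex I and later recognised as a cytochrome c oxidase subunit, measured 14.89, 14.74, 14.71, 14.84 and 14.88 in C57Bl/6 and 14.65, 14.33, 14.29, 14.45 and 14.64 in C3H. No C3H array reached the lowest C57Bl/6 array. Its difference of -0.34 (SE 0.09, adjusted p 0.0166) was lost with median centring (0.147), with the poly-A covariate (0.0612) and without C3H replicate 3 (0.0543). Cox6a1, the form of subunit 6a found in most tissues, measured 13.61, 14.20, 13.74, 13.42 and 14.01 in C57Bl/6 and 13.88, 14.36, 14.18, 14.32 and 14.47 in C3H. The ranges overlapped, and the difference was 0.44 (SE 0.14, adjusted p 0.03). It held in 20 of 29 alternatives and was lost without C3H replicate 2, 4 or 5 or C57Bl/6 replicate 1, 3 or 4 (adjusted p over all alternatives 0.00671 to 0.0955).

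Several complex IV subunits have a heart and muscle form and a form of other tissues, and such pairs were compared as the difference between both genes on each array. In the exact two-sided permutation tests over 5 pairs and 3 strain comparisons, 0 of 15 passed after Benjamini-Hochberg adjustment and 1 had an unadjusted p under 0.05. That one was Cox8b minus Cox8a, B6C3F1 against C57Bl/6, with a shift of 1.19 (exact p 0.0317, adjusted 0.238). Cox8b minus Cox8a was 1.96, 3.27, 1.72, 1.68 and 1.98 on the C57Bl/6 arrays and 3.53, 3.60, 3.96, 3.56 and 1.88 on the B6C3F1 arrays. C57Bl/6 replicate 2 stood with the high arrays of B6C3F1, and B6C3F1 replicate 5 with the low arrays of C57Bl/6. Cox8b itself, the heart and muscle form, measured 12.58, 14.44, 12.71, 12.66 and 13.16 in C57Bl/6, 12.70, 14.29, 14.43, 14.41 and 14.52 in C3H, and 14.46, 14.78, 14.59, 14.73 and 12.95 in B6C3F1. Its strain differences of 0.96 (adjusted p 0.106) and 1.19 (adjusted p 0.0886) against C57Bl/6 did not pass limma's test. Cox6a2 minus Cox6a1, the heart form against the general one, had a mean of 1.13 ± 0.28 over the C3H arrays (SD, n = 5), against 1.68 ± 0.45 over those of C57Bl/6 (shift -0.55, exact permutation p 0.0556, adjusted 0.238). For Cox7a1 minus Cox7a2 the shifts were 0.26 between the inbred strains, 0.39 from C57Bl/6 to B6C3F1 and 0.13 from C3H to B6C3F1. For Cox4i2 minus Cox4i1, a lung form against the general one, they were -0.17, -0.19 and -0.02 in the same order, and for Ndufa4l2 minus Ndufa4 they were -0.43, 0.20 and 0.63. Ndufa4l2 measured 6.81 to 7.99 in C3H, 7.47 to 8.56 in C57Bl/6 and 7.45 to 8.52 in B6C3F1, so that the strains overlapped.

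Cox7a2l takes part in joining complexes III and IV into supercomplexes, and C57BL/6 mice are known to carry a shorter form of the protein. It measured 13.55, 13.79, 13.52, 13.53 and 13.51 in C57Bl/6, 13.84, 14.02, 13.97, 14.12 and 14.13 in C3H, and 13.76, 13.72, 13.75, 13.93 and 13.82 in B6C3F1. Every C3H array lay above every C57Bl/6 array. Cox7a2l was 1.35-fold higher in C3H (log2 difference 0.43, SE 0.08, adjusted p 0.000699) and held in all 29 alternatives. Its other probe sets gave smaller differences, 0.23 and 0.08, that did not pass.

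Complex V had 1 call between the inbred strains. Atp5mpl, a small membrane subunit of the ATP synthase, measured 12.72, 13.27, 12.66, 12.71 and 12.89 in C57Bl/6, 13.16, 13.34, 13.43, 13.36 and 13.57 in C3H, and 13.24, 13.60, 13.31, 13.35 and 12.98 in B6C3F1. C57Bl/6 replicate 2 lay within the C3H range and the other 4 lay below it. Its 6 lowest arrays were those on which Cox8b was low (4 of C57Bl/6, C3H replicate 1 and B6C3F1 replicate 5). Atp5mpl was higher in C3H than in C57Bl/6 (log2 difference 0.52, SE 0.12, adjusted p 0.00538), which held in all 29 alternatives. It was also higher in B6C3F1 than in C57Bl/6 (0.45, SE 0.12, adjusted p 0.0467), which held in 14 of 29 and was lost without B6C3F1 replicate 1, 2, 3 or 4, C3H replicate 2, 3 or 4, or C57Bl/6 replicate 1, 3, 4 or 5 (adjusted p over all alternatives 0.00616 to 0.131). Atp5g2, one of several genes for the rotating subunit c, measured 12.64, 13.05, 12.95, 13.07 and 12.57 in C57Bl/6 and 13.44, 13.93, 13.73, 13.73 and 12.93 in B6C3F1. B6C3F1 replicate 5 alone lay within the C57Bl/6 range. Its difference of 0.70 (SE 0.17, adjusted p 0.0297) held in 21 of 29 alternatives and was lost without B6C3F1 replicate 1, 2, 3 or 4 or C57Bl/6 replicate 1, 3 or 5 (adjusted p over all alternatives 0.00316 to 0.0898).

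The choice of probe set decided some calls. Of the 82 tested probe sets of members that were not chosen, 7 passed between the inbred strains, and for 6 of these the chosen set of the gene did not pass. On chosen sets, 15.7% of all tested genes passed there. The share passing over all 23048 tested probe sets is not given here, so the 7 are listed as a description. Besides Sdha they belong to Sdhaf2 (-0.87, chosen set 0.09), Atp5g1 (-3.06, chosen set 0.15), Ndufb7 (-0.34, chosen set 0.04), Cox6c (0.62, chosen set 0.08) and Atp5o (0.75, chosen set -0.04). The Atp5g1 set measured 4.66 in C3H, under the limit of 5.74, and 7.73 in C57Bl/6. These 6 genes are named after their values were seen.

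**Figure D2:**
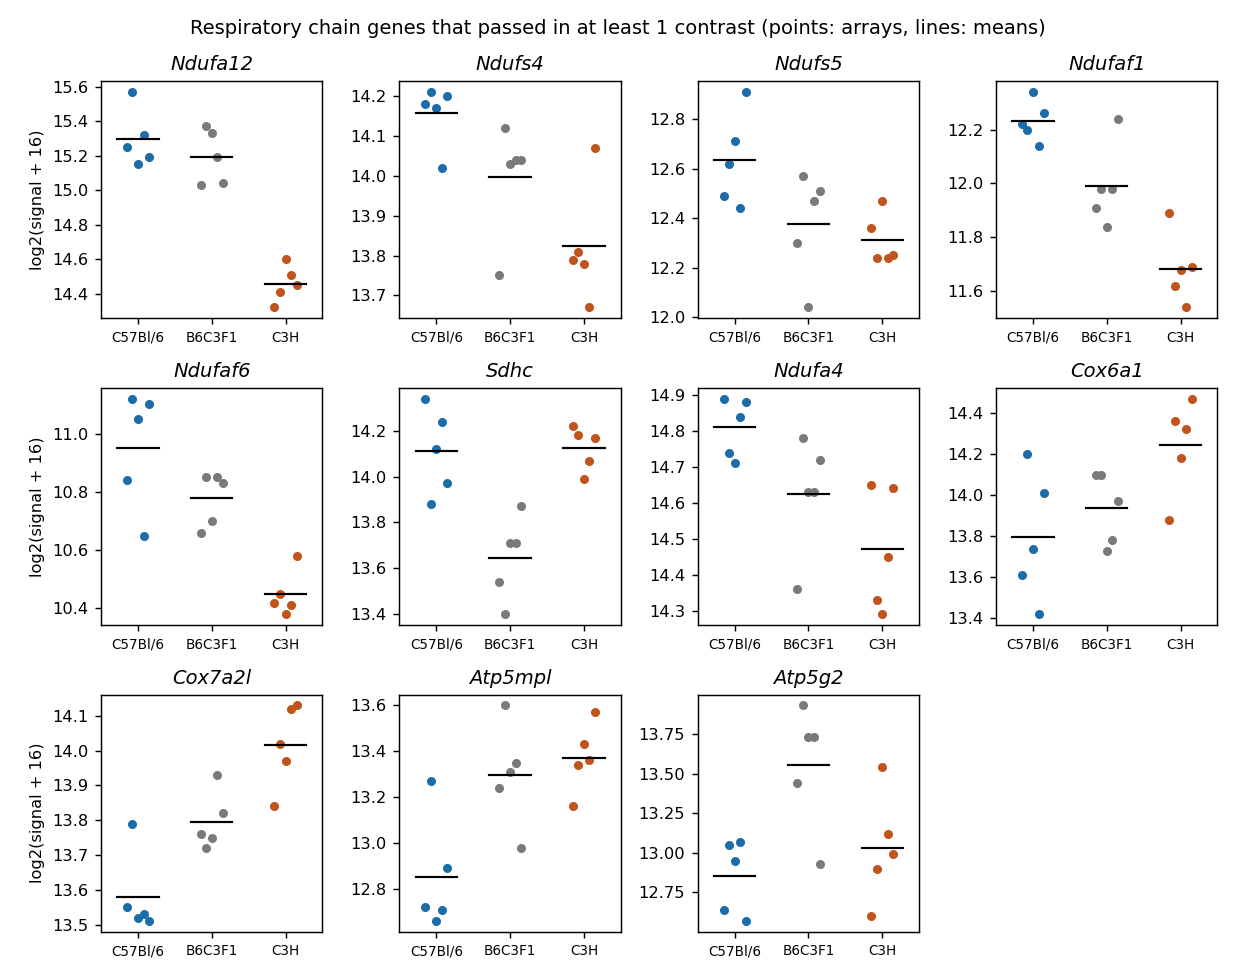
Each panel shows 1 of the 11 members that passed in at least 1 contrast, with the log2(signal + 16) of every array as a point and the strain mean as a line. The panels have separate vertical scales, and Ndufa12 and Ndufaf6 in C3H and Sdhc in B6C3F1 do not overlap either other strain. The gap to the nearest array is narrow for Sdhc (13.87 against 13.88) and for Ndufaf6 (10.58 against 10.65).

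The cross was then set against each parent. Between B6C3F1 and C57Bl/6, 3 of the 92 members passed (Sdhc lower, Atp5mpl and Atp5g2 higher), or 3.26% against 3.83% of all tested genes (2.06% higher and 1.77% lower). The arrays of both did not overlap for Sdhc alone, and for 6.16% of all tested genes. This count rested on single arrays, and the count over all tested genes moved with it. It was 9 without B6C3F1 replicate 5 (811 of 13113 tested genes) and 7 without C57Bl/6 replicate 2 (826 of 13115). It was 1 without B6C3F1 replicate 1, 2, 3 or 4 or C57Bl/6 replicate 1, 3 or 5. In those fits 272 to 381 of all tested genes passed, against 502 in the main fit. Between B6C3F1 and C3H, 4 passed (Ndufa12, Ndufaf1 and Ndufaf6 higher, Sdhc lower), 4.35% against 6.2% (3.58% higher and 2.62% lower). Ndufaf6, Ndufa12 and Sdhc, 3 members, did not overlap there, and 6.4% of all tested genes did not. The count of 4 passing became 2 without B6C3F1 replicate 1, 2 or 4, C3H replicate 2 or 4, or C57Bl/6 replicate 1, 3 or 5. In those fits 554 to 799 of all tested genes passed, against 813 in the main fit. Against the midparent, Sdhc alone passed, 1.09% against 0.633% (0.481% higher and 0.153% lower), and without B6C3F1 replicate 2 the count was 0. It was 2 without B6C3F1 replicate 5, C3H replicate 3 or C57Bl/6 replicate 2. Over all tested genes 83 passed against the midparent, and 45 without B6C3F1 replicate 2. Without the arrays just named, 114, 82 and 113 passed in that order. The medians of the members were 0.01, 0.10 and 0.08 in these contrasts, beside 0.01, 0.03 and 0.03 over all tested genes. Of the marker lists, 2 of 7 fibroblast markers were higher in B6C3F1 than in C57Bl/6, and 2 of 6 endothelial and 1 of 5 leucocyte markers were higher in B6C3F1 than in C3H. The part of these in the members' differences was not tested. Against C57Bl/6, complex medians of B6C3F1 were 0.05 (I), -0.19 (II), -0.03 (III), 0.00 (IV) and 0.02 (V), and against C3H they were 0.10, -0.03, 0.09, 0.12 and 0.11. In all 9 members that passed between the parents, the B6C3F1 mean lay between the parental means, as it did in 87.9% of the 2052 tested genes that passed there.

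The respiratory chain genes also varied together from mouse to mouse within strains. After each strain's mean was removed, the Pearson r of every pair of genes was taken over the 15 arrays, as a description. These arrays share labelling, RNA quality and scaling, so the points are not free of each other. The median r of pairs was 0.71 in complex I (33 genes), 0.66 in complex V (17), 0.61 in complex III (8), 0.35 in complex II (4) and 0.26 in complex IV (17). Within complex I the medians were 0.84 for the Q module, 0.62 for the electron-input module and 0.65 for each part of the membrane arm. Over all pairs of the 79 subunits it was 0.59, over the 12 assembly factors 0.24 and over all pairs of tested genes 0.00. Quantile normalization, which forces the same distribution on every array, brought these medians down to 0.18 (I), 0.20 (V), -0.09 (III), 0.13 (II) and 0.12 (IV), and to 0.14 over all subunits. Median centring left 0.69, 0.69, 0.55, 0.35 and 0.29. Without probe sets ending in _x_at or _s_at the medians were 0.61 in complex I, 0.39 in complex V and 0.24 in complex III. The amount of shared variation therefore depended on the scaling.

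**Figure D3:**
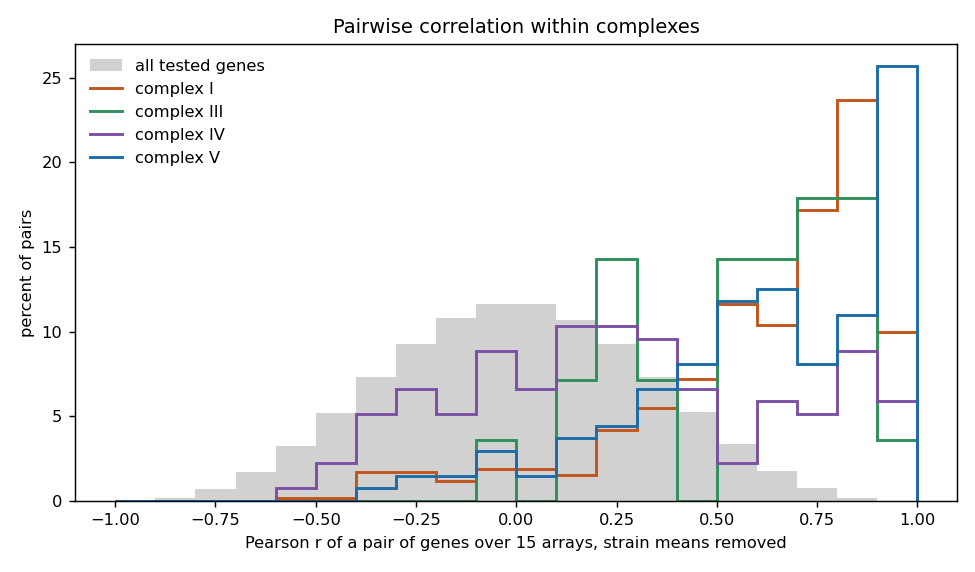
The percent of gene pairs (vertical axis) is plotted by Pearson r over 15 arrays with strain means removed, for all tested genes (grey) and for complexes I, III, IV and V (lines). Pairs of complexes I, III and V lie to the right, with medians of 0.71, 0.61 and 0.66, and complex IV spreads across the range with a median of 0.26.

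Brightness moved with this variation. Of the 79 subunits, 61 had a mean of at least 14, and their pairs had a median r of 0.75, against 0.39 for the pairs of 230 other genes that bright. That threshold was kept from 6 settings looked at with the values in view. The medians for subunits and other genes were 0.59 and 0.00 with no threshold, 0.66 and 0.00 at 10, 0.67 and 0.05 at 12, 0.69 and 0.14 at 13, and 0.86 and 0.80 at 15. The gap between respiratory chain genes and other genes thus shrank to 0.86 against 0.80 (37 and 71 genes) at the brightest setting. In complex IV, 5 of 17 subunits are dim on their chosen probe sets. The median there went from 0.26 to 0.45 over the 12 with a mean of at least 10, a limit also set after seeing the values. The part of brightness in the shared variation was not tested apart from that of the pathway.

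The mean deviations of the complexes followed one another over the arrays. Complex I went with complex III (r 0.98, rho 0.98, n = 15 arrays), complex V (0.96, 0.97) and complex IV (0.94, 0.94), and less with complex II (0.37, 0.41). Leaving out the 2 arrays farthest from the median of complex I gave 0.98, 0.95, 0.91 and 0.52. For complex I, the arrays highest against their strain were C57Bl/6 replicate 2 (0.23), B6C3F1 replicate 2 (0.20) and C3H replicate 5 (0.18). The lowest were C3H replicate 1 (-0.21), B6C3F1 replicates 1 (-0.19) and 5 (-0.18) and C57Bl/6 replicate 3 (-0.14). On B6C3F1 replicate 2, 74 of the 79 subunits lay above their strain mean, and on B6C3F1 replicate 1 and C57Bl/6 replicate 3, 8 did.

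**Figure D4:**
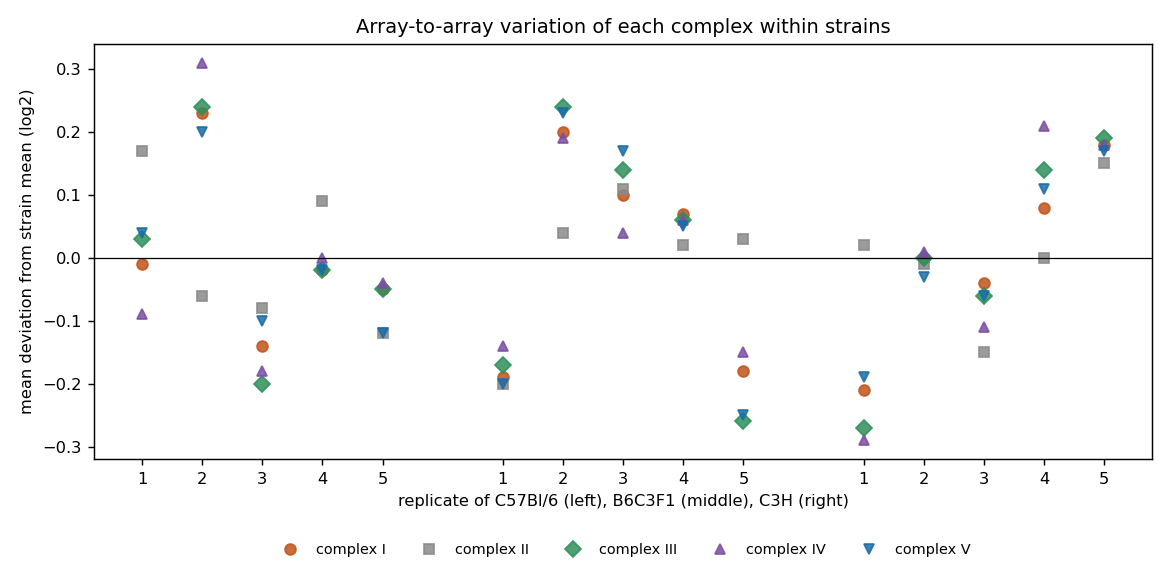
The mean deviation of each complex from its strain mean (log2, vertical axis) is shown for each of the 15 arrays, by strain. Complexes I, III, IV and V lie close together on most arrays, and complex II (squares) lies apart on several, such as C57Bl/6 replicate 2 (-0.06 against 0.23 in complex I).

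Some array measures moved with the complex means. The Gapdh 3'/5' ratio, which rises as RNA is broken or copied incompletely, had r with the complex means of 0.52 (II) to 0.70 (V), and 0.58 with complex I. The same ratio for Actb had 0.27 with complex I and 0.01 (II) to 0.38 (IV) over the complexes, and the array median had 0.32 with complex I and 0.63 with complex II. The mean of the 230 other bright genes had r 0.86 with complex I. Cardiomyocyte markers had 0.65 and endothelial markers -0.70 with complex I. Without the 2 arrays farthest from the median of the markers these were 0.56 and -0.52. The other marker lists had -0.44 (smooth muscle), -0.26 (Schwann, 1 tested gene), 0.25 (red cell, 1 tested gene), 0.21 (fibroblast) and -0.00 (leucocyte). The poly-A controls had 0.03 with complex I. The Gapdh 3'/5' ratio (log2) was 0.53, 0.48, 0.39, 1.06 and 0.56 on the C3H arrays. It was 0.95, 1.02, 0.78, 1.05 and 0.46 on those of C57Bl/6 and 0.66, 1.04, 1.13, 0.96 and 0.69 on those of B6C3F1. With that ratio as a covariate, 10 members passed between the inbred strains (4 higher, 6 lower), and 2153 of all tested genes. The part of these measures in the shared variation was not tested.

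**Figure D5:**
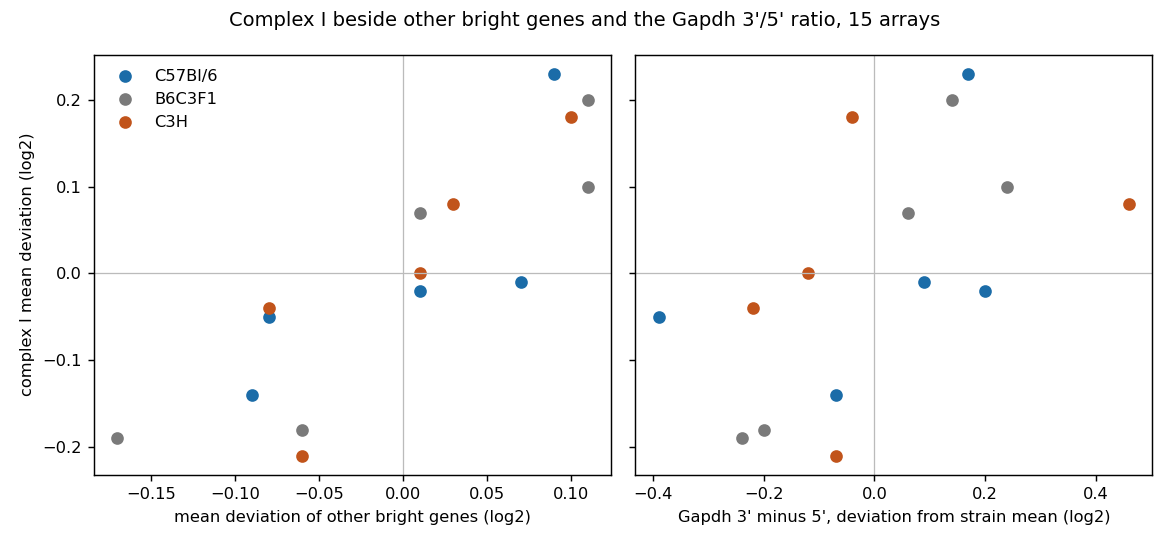
The mean deviation of complex I on each of the 15 arrays (vertical axis, log2) is plotted against that of 230 other bright genes (left) and against the Gapdh 3'/5' ratio as a deviation from its strain mean (right), coloured by strain. Points rise from left to right in both panels, with r 0.86 and 0.58.

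Single subunits differed in how closely they followed their complex. In complex I, Ndufv3, a small subunit of the electron-input module, followed the mean of the others most closely (r 0.98) and Ndufs5 least (-0.20). Cox7a2 (0.88) and Ndufa4l2 (-0.24) were the extremes of complex IV, and Atp5j (0.95) and Atp5md (0.27) those of complex V. In complex III they were Uqcrq (0.94) and Uqcrfs1 (0.39), the Rieske iron-sulphur protein, and in complex II Sdha (0.75) and Sdhc (0.32). Sdhc had r -0.42 with complex I, whereas Sdhb, Sdha and Sdhd had 0.77, 0.40 and 0.27. Of these least-following subunits, Ndufs5 and Sdhc passed a strain test, and Ndufa4l2, Uqcrfs1 and Atp5md passed none. Among other passing subunits, Ndufa12 had r 0.82 and Atp5mpl 0.74 with the mean of the others of their complex. Outside the members, Cycs (cytochrome c), Micos10, Chchd10 and Gm12338 had r 0.96 with complex I. The ribosomal protein genes Rps14, Rpl22 and Rps18 had 0.97, 0.95 and 0.94, and Cryab and Fabp3 had 0.94. These genes are named after their values were seen. Of the 230 other bright genes 39.6% had r of at least 0.7 with complex I, and of all 13019 tested genes outside the list 3.46%.

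Lists of related genes gave further context between the inbred strains, where 15.7% of all tested genes passed, 7.25% higher and 8.4% lower in C3H. Of 13 tested genes listed for mobile carriers and coenzyme Q synthesis, 2 were higher in C3H (Coq5 0.56, adjusted p 8.32e-05, and Coq6 0.49, adjusted p 0.0236) and 3 lower, among them Coq7 (-0.68, adjusted p 0.00042) and Pdss2 (-0.45, adjusted p 0.00331). That list also holds Cyc1, cytochrome c1, a complex III subunit whose symbol the rule does not reach (-0.10, adjusted p 0.633). In a list of 30 other assembly factors, which also holds the ATP synthase inhibitor Atpif1, 7 were lower in C3H and 1 higher (Cox19, 0.44, adjusted p 0.0482). The most lowered was Uqcc1, an assembly factor of complex III, with means of 10.91 in C3H, 11.87 in C57Bl/6 and 11.35 in B6C3F1 (log2 difference -0.96, SE 0.12, adjusted p 5.75e-06). Tmem126b (-0.78) and Acad9 (-0.47), which help assemble complex I, were lower as well. Uqcc1 lay lower in B6C3F1 than in C57Bl/6 (-0.52, adjusted p 0.0142) and higher than in C3H (0.44, adjusted p 0.0285). In the citrate cycle list 2 of 13 were lower (Idh2 -0.40, Fh1 -0.22), and of 10 regulators Esrrg was higher (0.32, adjusted p 0.0277). The medians of these lists were -0.02, -0.09, -0.08 and 0.11, beside -0.02 over all tested genes. None of the 13 mitochondrially encoded subunits was named on the array as annotated here.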

How the data were processed

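RNA of 15 heart apices was measured on Affymetrix mouse arrays. The deposited values are log2 signals, and MAS5 is named, per the submitters' processing notes (version not given in the sources used here). The 2% trimmed mean of the linear signal was 500.26 to 500.28 on every array. Arrays carry no read depth, so their number limits the precision. Here log2(signal + 16) was computed after undoing the deposited log. Each gene took the probe set with the highest mean over arrays, and genes with a mean under 5.74, the 40th percentile, were not tested. A group means model over all 15 arrays (limma 3.58.1, R 4.3.3, lmFit and eBayes with trend) gave the differences, adjusted by Benjamini-Hochberg over 13111 genes. Every adjusted p is from this fit unless a permutation test is named. The procedure was tested on simulated data. Alternatives covered pseudocounts of 1 and 64, the dim filter, scaling, probe set choice, eBayes settings, covariates, array weights, the replicate number and leaving out each array. Genes named were up to 6 each way among members passing between the inbred strains, up to 4 each way in other contrasts, all genes of the 5 paralogue pairs, and per complex the subunits that follow it most and least. Up to 4 passing genes of each related list were named. Others were singled out after their values were seen. The members and lists were chosen with earlier results of these data known.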

Additional observations from a re-analysis of the deposited data

Results flagged for a closer look

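Among 90 strain groups of 5 arrays examined, 7 held 1 array far from the other 4, and chance alone gives about 1 in 20. Cox7a2l in C57Bl/6 had 13.79 on replicate 2, and 13.51 to 13.55 on the others. Ndufs4 had 14.02 on C57Bl/6 replicate 4 (others 14.17 to 14.21) and 13.75 on B6C3F1 replicate 1 (others 14.03 to 14.12). Ndufv3 had 15.22 on C57Bl/6 replicate 2 (others 14.75 to 14.86). In C3H, replicate 1 was low for Cox7a1 (13.76, others 14.49 to 14.73) and for Cox8b (12.70, others 14.29 to 14.52). In B6C3F1, replicate 5 was low for Cox8b (12.95, others 14.46 to 14.78).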

How the results depend on the processing

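Counts of members passing moved by over 1.5 times as follows. B6C3F1 minus C57Bl/6 (3) gave 1 without the eBayes trend and 12 with array weights. Over all tested genes that contrast went from 502 to 304 and 1314. B6C3F1 minus C3H (4) gave 2 with no dim filter, with median centring, without _x_at and _s_at sets or without the trend, and 1 with the poly-A covariate. Over all tested genes it went from 813 to 683, 674, 754, 639 and 393 in that order. B6C3F1 minus midparent (1) gave 2 under quantile normalization or with the replicate block, and 3 with array weights. All tested genes went from 83 to 86, 117 and 254 there. Leaving out 1 array gave 1 to 9, 2 to 4 and 0 to 2 in these contrasts, and 7 to 12 between the inbred strains (9). Over all tested genes the same fits gave 272 to 826, 554 to 1133, 41 to 212 and 1640 to 2276. Same-numbered arrays of different strains had correlated deviations of -0.06 to 0.13 (median r 0.01), with 2 of 15 pairs over 0.1. Differently numbered arrays had -0.23 to 0.22 (median r -0.01), with 2 of 60 pairs over 0.1. Whether the replicate numbers carry a handling order was not tested. With the replicate block 10, 3, 4 and 2 members passed, and 2042, 491, 864 and 117 of all tested genes. The calls of Ndufs5 between the inbred strains and of Ndufaf1 and Ndufaf6 between B6C3F1 and C3H were lost with it. Quantile normalization turned Cox4i1 between the inbred strains to 0.15, past the threshold, and gave shared variation of 0.18 (I), -0.09 (III), 0.12 (IV) and 0.20 (V). Without _x_at and _s_at sets it was 0.61 (I), 0.24 (III) and 0.39 (V), and over brighter subunits 0.45 (IV). The complex V median between B6C3F1 and C3H was -0.06 with the Gapdh covariate. Cox4i2 minus Cox4i1 between B6C3F1 and C3H was 0.06 under quantile normalization, and -0.18 to 0.25 leaving out 1 array. Against C57Bl/6 that pair gave -0.36 to 0.08 (B6C3F1) and -0.29 to 0.03 (C3H), and Cox8b minus Cox8a between B6C3F1 and C3H gave -0.28 to 0.44. The cause of these moves was not tested.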

Other observations

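The 6 lowest arrays for Cox8b, the heart form of a complex IV subunit, were C57Bl/6 replicates 1, 3, 4 and 5, C3H replicate 1 and B6C3F1 replicate 5. Its values there were at most 13.16, and the next array lay at 14.29. The same 6 arrays were the lowest for 14 of the 92 tested members (15.2%), and for 228 of the 13111 tested genes (1.74%). This pattern was noticed in the values and then counted in the same data, so it is a description. Besides Cox8b the members were Uqcr10, Ndufa6, Ndufb2, Sdhaf1, Ndufs8, Atp5mpl, Sdhaf3, Cox7a1, Ndufb10, Sdhaf2, Uqcr11, Ndufa8 and Atp5e. Uqcr10 had the next widest gap of the members, from 12.15 to 12.89. Outside the list, Rpl37a went from 12.50 to 13.21, Rps15 from 13.35 to 13.79 and Naa38 from 11.74 to 12.21. Of the 6 arrays 4 are of C57Bl/6, and Atp5mpl is the only one of the 14 that passed between the inbred strains. For Cox8b, C57Bl/6 replicate 2, B6C3F1 replicate 5 and C3H replicate 1 each lay opposite to the rest of their strain. Leaving them out took the count of members passing between B6C3F1 and C57Bl/6 from 3 to 7, 9 and 4, and that between the inbred strains from 9 to 11, 11 and 12. Over all tested genes the counts went from 502 to 826, 811 and 720, and from 2052 to 2129, 2117 and 2276. These arrays were picked for lying opposite to their strain in the same data. Leaving out such arrays by itself narrows the spread within strains for genes that share the pattern. The rises in members are therefore a description only.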
